A study of Homo sapiens with 3 samples.

Results

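Intronic cleavage and polyadenylation sites (pAs) were examined in genes for which the deposited pA table lists no pA in the 3ʹ-most exon. These were 2217 pAs of 1137 genes, out of 31565 pAs of 9431 genes in all. They were chosen by the pA type and the gene name in the table. Every listed pA has at least 1 read over the 3 libraries, so whether a 3ʹ-most-exon pA is listed itself depends on the reads. The data came from RKO, an established line of poorly differentiated colon carcinoma cells, as nuclear RNA profiled by 3ʹREADS, a method that sequences RNA fragments adjacent to poly(A) tails so that each read marks the end of 1 transcript. There were 3 groups of 1 library each: baseline cells (0 h), and cells left to recover for 0.5 h or for 2 h after UV irradiation. No time point had a replicate, so each test below compares the reads of 2 libraries and not 2 conditions. In this order, the libraries held 433261, 501838 and 438040 reads, and 1 read was 2.31, 1.99 and 2.28 RPM (the unit of the deposited values, relative to the library total), respectively. Unless stated otherwise, sets of 3 read counts below are in the order 0 h, 0.5 h and 2 h. Positions are on hg19. Since the data come from 1 cell line without replicate cultures, they carry no measure of how the values vary between cultures.

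Most human genes hold sequences inside their introns that the cleavage and polyadenylation machinery can use. Cleavage at such a site ends the transcript early and gives an RNA with a shorter or altered coding region. In most introns, splicing of the intron competes with this cleavage, and U1 snRNP, the particle that recognizes 5ʹ splice sites, is known to hold it back. UV light leaves lesions in DNA that stall RNA polymerase II. In the genes described here the intronic pAs could not be set against a 3ʹ-most-exon pA of the same gene, so the abundance of each pA itself was compared. The transcript models behind the pA types are not given, so a pA typed as intronic may be the last pA of a shorter model. Reads at such a pA need not come from a transcript that ended early.

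Of the 1137 genes, 1130 were protein-coding by symbol in RefSeq, 4 were lncRNA genes, 2 were pseudogenes and 1 symbol was unmatched. Genes with 1 such pA numbered 650, and 487 genes had at least 2, up to 14. In 62 of the genes the table also lists pAs in upstream exons, 80 in all, and for the other 1075 genes it lists intronic pAs only. Neighbouring pAs of a gene were a median of 6103 bases apart, and 75 of the 1080 neighbouring pairs (6.94%) were within 100 bases. The absence of a 3ʹ-most-exon pA under a gene's name does not always mean that none was listed for the locus. Of the pAs, 10 are listed under more than 1 gene, and 5 of these share their position with a 3ʹ-most-exon pA of another gene, such as LEPR, the leptin receptor gene, with LEPROT. A further case is ALG11, a glycosylation enzyme gene, whose pA with 49, 48 and 43 reads is also listed as an exonic pA of UTP14C. On the same strand, 85 pAs lay within 10000 bases of a 3ʹ-most-exon pA.

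The label of the cell line was checked against markers over all pAs of the table. Of 3 keratin markers of simple epithelia, KRT8 and KRT18 were in the table and KRT19 was not. KRT8 and KRT18 together had 6, 7 and 30 reads. KRT8, all of whose pAs were intronic, held 4, 4 and 26 of them. The KRT8 pAs lie between 53334262 and 53342434 on the minus strand of chromosome 12. Reads at intronic pAs do not measure full-length KRT8 mRNA, so the marker check says little about KRT8 expression. Of 10 markers listed for colon epithelium EPCAM alone was in the table, with 7, 6 and 0 reads. Of 7 blood cell markers HBA1 alone was listed, with 1 read at 2 h, and none of 9 fibroblast markers was.

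More of these pAs had reads at 2 h than at either earlier time. At least 1 read was found at 834 pAs (37.6%) in the 0 h library, 805 (36.3%) in the 0.5 h library and 1264 (57.0%) in the 2 h library. Genes with reads numbered 572, 547 and 775 of 1137. Thinned to the smallest library, the counts of pAs were 834, 760 and 1259, and with at least 2 reads required they were 423, 481 and 691. The number at 2 h was 1.57 times that at 0.5 h, beside 1.95 times for the 9772 intronic pAs of genes with 3ʹ-most-exon pAs (3140 and 6135 pAs). The pAs in 3ʹ-most exons went the other way, with 12705, 11256 and 10599 of 18415. Since every listed pA has reads in some library, the share with reads in 1 library depends on the reads in the others.

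**Figure D1:**
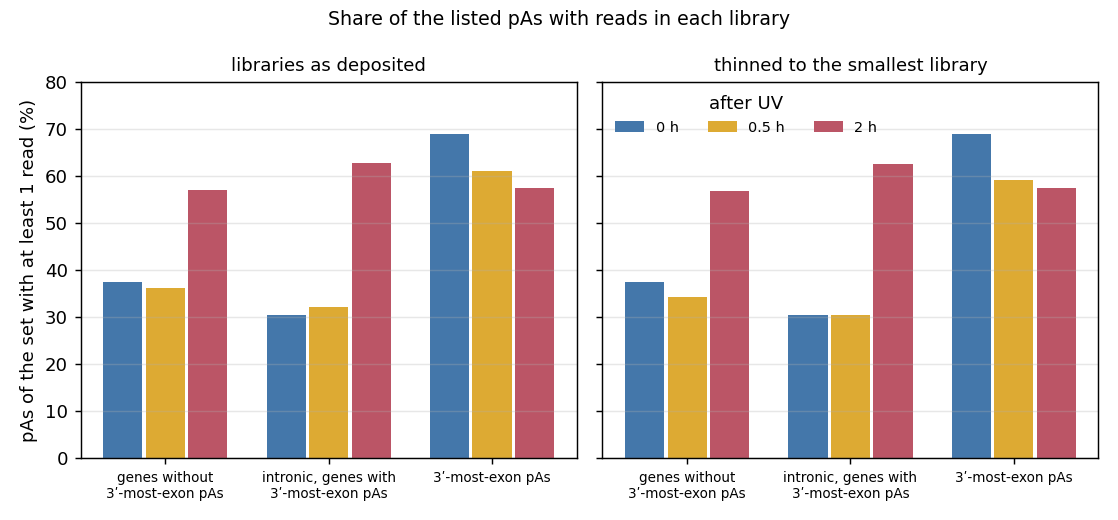
Percent of the listed pAs of each set that had at least 1 read (y axis) at 0 h, 0.5 h and 2 h (bars), in the libraries as deposited (left) and thinned to the smallest library (right). For the intronic pAs of genes without 3ʹ-most-exon pAs the bars are at 37.6%, 36.3% and 57.0% in the left panel, and the 2 h bar is the tallest in both panels.

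The pAs seen in a single library were shallow. Reads at 2 h only were found at 881 pAs (39.7%), beside 447 (20.2%) at 0 h only and 418 (18.9%) at 0.5 h only. Reads in all 3 libraries were found at 215 pAs (9.70%). Of the intronic pAs of genes with 3ʹ-most-exon pAs, 48.1% had reads at 2 h only, and of the 3ʹ-most-exon pAs 13.3% had. Of the 881 pAs, 470 had a single read and 42 had 5 or more. The 4 with at least 10 reads were in PODNL1, a leucine-rich repeat protein gene, ABL1, the gene of a nuclear and cytoplasmic tyrosine kinase, CLEC16A, a gene involved in mitophagy, and TCEB3, which encodes elongin A. At 0 h only, 1 pA had 10 or more reads (in SEPT8, a septin gene), and at 0.5 h only, 1 pA (in CENPN, a centromere protein gene). In the 253 genes with at least 3 of these pAs, the 2 h library had reads at the most pAs in 114 genes (45.1%), the 0 h library in 42 (16.6%) and the 0.5 h library in 33 (13.0%), with 64 ties. In the 1189 genes that have 3ʹ-most-exon pAs and at least 3 intronic pAs, the 2 h library led in 672 (56.5%).

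The reads in total changed less than the number of pAs. The 0 h library had 5981 reads at these pAs, which was 1.38% of its reads (95% Clopper-Pearson interval 1.35–1.42%). The 0.5 h library had 6151 or 1.23% (1.20–1.26%), and the 2 h library 6250 or 1.43% (1.39–1.46%). The intervals at 0 h and 2 h overlap, while that at 0.5 h lies below both. The intronic pAs of genes with 3ʹ-most-exon pAs held 5.48%, 4.78% and 7.03%, and without their own 10 most abundant pAs 2.61%, 2.78% and 4.97%, so that their lower share at 0.5 h than at 0 h rests on those 10. The 10 most abundant pAs held 39.6%, 40.0% and 32.6% of their reads in the 3 libraries. Without the 10 most abundant members, the shares of the library were 0.834%, 0.735% and 0.962%, and the 3 intervals were apart from each other. At the other end, 1002 pAs (45.2%) had a single read over the 3 libraries, and they held 5.07%, 3.72% and 7.52% of the reads.

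The most abundant pA was in ABCF2, which encodes an ATP-binding cassette protein of the F family, at position 150910587 on the minus strand of chromosome 7. It had 566, 410 and 362 reads, more than 99.3% of the 3ʹ-most-exon pAs in the table. RPS3, the gene of a protein of the small ribosomal subunit, had 9 pAs on chromosome 11, and 2 of them held nearly all of its reads. The pA at 75116733 had 443, 419 and 303 reads, and that at 75117049 had 168, 136 and 105. ABCF2 was highest at 0 h, and both RPS3 pAs were highest at 0 h and lowest at 2 h. TMEM156, a transmembrane protein gene, had 267, 369 and 361 reads. MRPL43, the gene of a mitochondrial ribosomal protein, had 279, 366 and 270 reads. None of these pAs passed the 2-fold ratio in any window.

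Other abundant pAs differed between the libraries by more than the 2-fold ratio. MAP7D3, a microtubule-binding protein gene, had 103, 219 and 253 reads and was 2.43-fold higher at 2 h than at 0 h (95% interval 1.92–3.09, adjusted p = 7.30e-14, Fisher's exact test). CTSC, which encodes the lysosomal peptidase cathepsin C, had 179, 118 and 61 reads and was 2.97-fold lower at 2 h than at 0 h (2.21–4.04). MAX, the gene of the dimerization partner of MYC, had 185, 109 and 38 reads at its pA at 65541845 on chromosome 14 and was 4.92-fold lower (3.46–7.18). Both fell step by step over the 3 libraries. SYS1, a Golgi trafficking gene, had 71, 80 and 21 reads and was at 2 h 3.33-fold lower than at 0.5 h (2.04–5.66). MCM9, which encodes a helicase that acts in homologous recombination repair, had 112, 43 and 4 reads at its pA at 119231762 on chromosome 6. It was 28.3-fold lower at 2 h than at 0 h (10.8–106, adjusted p = 4.21e-27, Fisher's exact test), the smallest p of all tested members in that window.

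Several of the 15 most abundant pAs were not called in any window. SEC61A2, a subunit gene of the endoplasmic reticulum translocon, had 65, 104 and 113 reads, and RABL6, a Rab-like GTPase gene, had 99, 124 and 148. ITFG3 had 144, 152 and 107. PRKAR1A, the gene of a regulatory subunit of protein kinase A, had 118, 149 and 68 at position 66526806 on chromosome 17. The main pA of PVRL1, the gene of the adhesion molecule nectin-1, at 119545099 on chromosome 11, had 55, 68 and 41. A p above the threshold or a ratio under 2 does not show that these pAs were level.

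**Figure D2:**
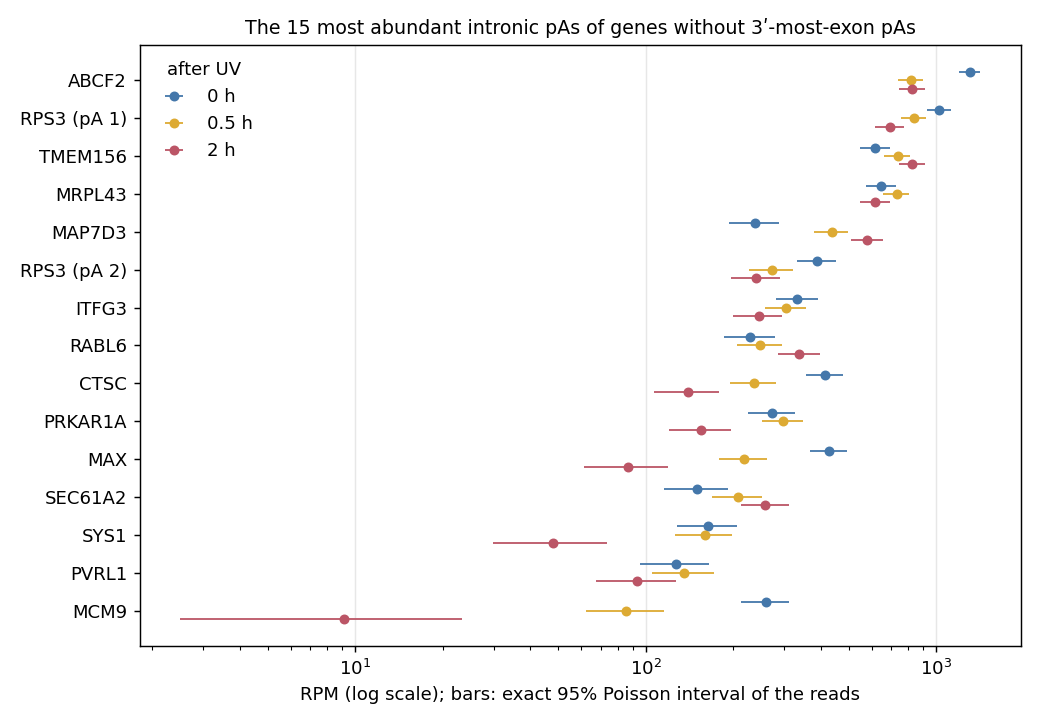
RPM on a log scale (x axis) of the 15 most abundant intronic pAs of genes without 3ʹ-most-exon pAs (y axis) at 0 h, 0.5 h and 2 h, with exact 95% Poisson intervals as bars. MCM9 shows the widest gap between the libraries, from 112 reads at 0 h to 4 at 2 h, while MAP7D3 rises from 103 to 253 reads.

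In the test across all pAs, a pA needed at least 10 reads over the 3 libraries, which 194 of the 2217 pAs (in 167 genes) had. The other 2023 were not tested. A pA that was high in a single library could pass this minimum through that library alone, so the counts of calls describe the tested pAs and not the whole set. A pA was called higher or lower at an adjusted p under 0.05 and an RPM ratio of at least 2 between the later and the earlier library. The 2 short windows share the 0.5 h library.

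In the 0–0.5 h window, 5 tested pAs were called higher (2.58%) and 13 lower (6.70%). Over all 6859 pAs tested in the table the shares were 3.66% and 7.55%, close to those of the members. MCM9 was 3.02-fold lower at 0.5 h than at 0 h (2.10–4.39, adjusted p = 4.46e-09, Fisher's exact test). AHNAK, the gene of a giant scaffold protein, had 49, 11 and 12 reads, 5.16-fold lower in the first window (2.65–11.0). A second pA of PVRL1, at 119531702, had 16, 0 and 8 reads and was at least 6.18-fold lower at 0.5 h than at 0 h. MKKS, a chaperonin-like gene, had 31, 8 and 19 reads, and LAMP2, a lysosomal membrane protein gene, had 17, 1 and 5. In both, the 0.5 h library was the lowest of the 3. SEPT8 had 12 reads at 0 h and none later, which made it at least 4.63-fold lower at 0.5 h. Among the pAs called higher was that at 42936351 in MTA3, the gene of a subunit of the NuRD chromatin complex. It had 13, 53 and 16 reads and was 3.52-fold higher at 0.5 h than at 0 h (1.89–7.04, adjusted p = 2.01e-04, Fisher's exact test). A more abundant pA of MTA3, at 42936684, had 40, 41 and 28 reads and was called in no window. XKR6 had 0, 16 and 6 reads, SNX31, a sorting nexin gene, had 1, 16 and 6, CENPN had 0, 10 and 0, and BTD, which encodes biotinidase, had 9, 28 and 12. All 5 pAs called higher had fewer reads at 2 h than at 0.5 h. The pAs of this window were called for their ratio of 0.5 h to 0 h, so a turn after 0.5 h can follow from that choice.

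In the 0.5–2 h window, 24 tested pAs were called higher (12.4%) and 16 lower (8.25%), beside 7.83% and 10.6% of all tested pAs. Among the 684 tested intronic pAs of genes with 3ʹ-most-exon pAs, 20.2% were called higher and 5.56% lower. Among the 5955 tested 3ʹ-most-exon pAs, the shares were 6.26% and 11.2%. Whether the members differ from these sets was not tested. The pAs called higher were mostly of low abundance: they had a median of 1 read at 0.5 h and 15 reads at 2 h, and 9 of the 24 had no read at 0.5 h. Of the 86 members with 10 to 19 reads, 13 were called higher and 3 lower, while of the 28 with 100 or more reads, 1 was called higher and 5 lower. With a minimum of 20 reads, 11 members were called higher and 15 lower. The median log2 ratio of the tested members was -0.07, beside -0.18 over all tested pAs, and with the pAs at 0 in a library set to 3 reads it was 0.02.

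The smallest p among the pAs called higher belonged to RAD51B, which encodes a protein of homologous recombination repair. Its pA at 68946778 on the plus strand of chromosome 14 had 9, 1 and 36 reads. The level at 2 h was 41.2-fold that at 0.5 h (6.94–1674, adjusted p = 1.08e-09, Fisher's exact test), where the fold rests on a single read, and 3.96-fold that at 0 h (1.87–9.34). MYEOV2, the gene of a small subunit of the COP9 signalosome, had 40, 34 and 80 reads, 2.70-fold higher at 2 h than at 0.5 h (1.78–4.15). LFNG, which encodes a glycosyltransferase that modifies Notch receptors, had 16, 23 and 60, 2.99-fold higher (1.82–5.07). These 2 pAs had reads in all 3 libraries and rest on more reads than the others called higher.

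Other pAs rose from no read at 0 h and 0.5 h. PODNL1 had 18 reads at 2 h and was at least 6.87-fold higher than at 0.5 h, and ABL1, with 17 reads at position 133715612 on chromosome 9, was at least 6.49-fold higher. TCEB3 and CLEC16A had 13 reads each at 2 h and were at least 4.96-fold higher. PPCS, a coenzyme A synthesis gene, had 5, 2 and 19 reads. PCNXL2 had 2, 1 and 15. RALGAPA1, the gene of a subunit of a Ral GTPase-activating complex, had 2, 4 and 19, and DNAJB6, a co-chaperone gene, had 5, 4 and 19. In each of these 4 pAs the 2 h library was the highest of the 3. Some of the genes hold further intronic pAs. Over all of them, PCNXL2 had 4, 15 and 16 reads and CLEC16A had 8, 12 and 17. The sums were 1, 0 and 20 in ABL1, 0, 0 and 18 in TCEB3, 3, 5 and 19 in RALGAPA1, and 5, 4 and 20 in DNAJB6. One of the 24, in TXNRD3NB with 5, 0 and 6 reads, lies at the position of a 3ʹ-most-exon pA listed for TXNRD3, of which RefSeq now gives TXNRD3NB as a synonym.

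Some of the abundant pAs were among the 16 called lower. PEX5, the gene of the import receptor of peroxisomes, had 44, 30 and 2 reads, 13.1-fold lower at 2 h than at 0.5 h (3.32–113, adjusted p = 2.10e-05, Fisher's exact test). MAX was 2.50-fold lower (1.72–3.72) and MCM9 9.38-fold lower (3.41–36.0). TMEM67, a gene of the ciliary transition zone, had 36, 47 and 11 reads, 3.73-fold lower (1.91–7.97). CNIH4, a gene of cargo export from the endoplasmic reticulum, had 67, 62 and 19, 2.85-fold lower (1.68–5.04). PQLC2, a lysosomal amino acid transporter gene, had 68, 45 and 12. TNRC18 had 20, 20 and 2, and SH2D4A had 7, 13 and 0. The 16 pAs had a median of 30 reads at 0.5 h and 6 at 2 h.

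**Figure D3:**
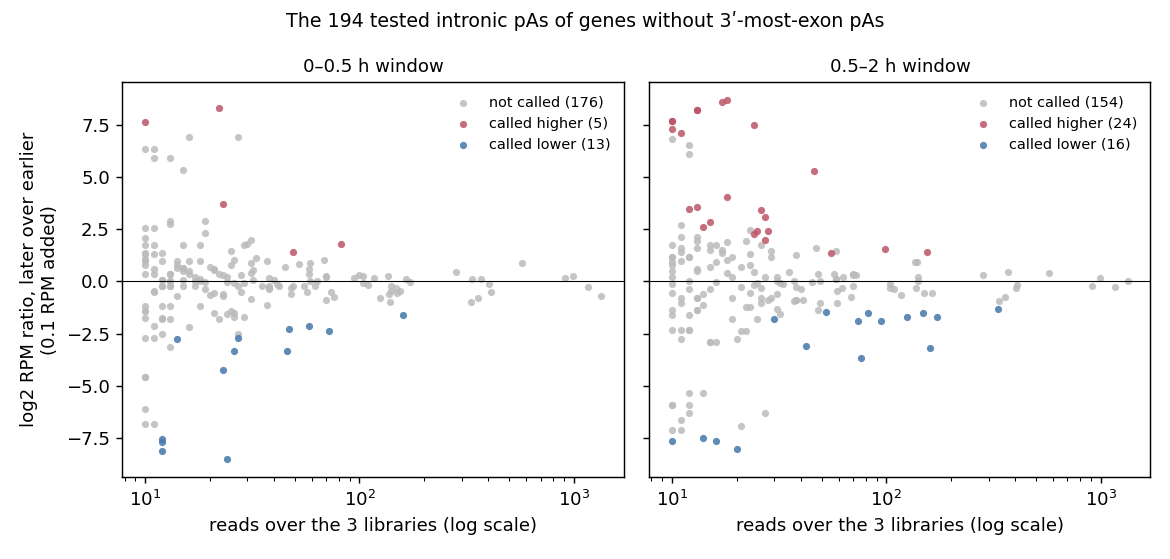
Log2 RPM ratio of the later over the earlier library, with 0.1 RPM added (y axis), against the reads over the 3 libraries on a log scale (x axis) for the 194 tested pAs between 0 and 0.5 h (left) and between 0.5 and 2 h (right), where each point is 1 pA. Of the points in the right panel 24 are called higher and 16 lower, and the points called higher lie mostly at the left, where reads are few.

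From 0 h to 2 h, 26 tested pAs were called higher (13.4%) and 28 lower (14.4%), beside 7.32% and 14.7% of all tested pAs. Which direction had more calls turned with the setting, with 32 higher and 23 lower when libraries were scaled to their 3ʹ-most-exon reads, 26 and 23 after thinning to the smallest library, and 11 and 21 with a minimum of 20 reads. VAPB, the gene of a tether at contacts of the endoplasmic reticulum, had 0, 6 and 21 reads and was at least 6.92-fold higher at 2 h than at 0 h. FAM160B1 had 29, 40 and 67 reads, 2.29-fold higher (1.46–3.67). MBP, best known as the gene of myelin basic protein, had 2, 8 and 19, and PHC2, a Polycomb group gene, had 0, 2 and 13. In all 4 the reads were ordered 0 h, 0.5 h, 2 h from low to high. GRB14, a receptor adaptor gene, had 23, 4 and 0 reads in the opposite order and was at least 7.75-fold lower at 2 h than at 0 h. SLC39A14, a zinc transporter gene, had 2 pAs 51 bases apart with 15, 6 and 0 reads and 12, 2 and 0 reads, so that these neighbours are not independent observations. SLC35A2, the gene of the UDP-galactose transporter of the Golgi, had 37, 30 and 7 reads, 5.34-fold lower (2.35–14.2). The median log2 ratio was -0.20 over the tested members and -0.28 over all tested pAs.

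**Figure D4:**
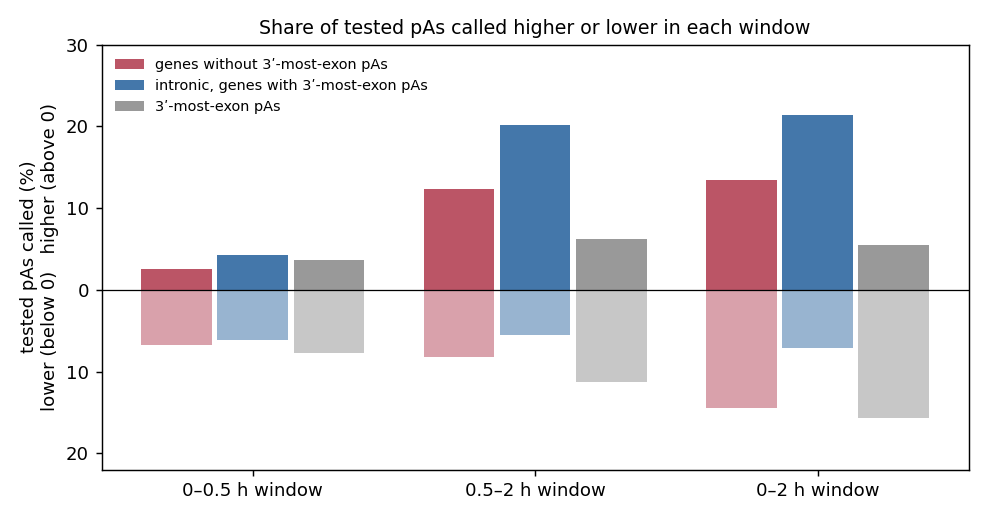
Percent of the tested pAs called higher (above 0) or lower (below 0) in each window (x axis) for the intronic pAs of genes without 3ʹ-most-exon pAs (194 pAs), intronic pAs of genes with them (684 pAs) and 3ʹ-most-exon pAs (5955 pAs). Between 0.5 and 2 h the bars above 0 are at 12.4%, 20.2% and 6.26%, in this order.

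Few pAs were called in both short windows, and most of these turned. Of the 76 pAs called in any window (in 73 genes), 5 were called in both. The same count over all tested pAs was not made, so whether this differs from other pAs was not tested. RAD51B, with 9, 1 and 36 reads, and the pA of PVRL1 with 16, 0 and 8 fell and then rose. The pA of MTA3 with 13, 53 and 16 reads and that of CENPN with 0, 10 and 0 rose and then fell. MCM9 fell in both. Because the windows share the 0.5 h library, a high or low read count there moves both ratios in opposite directions.

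Since pAs of 1 gene share their transcripts, the intronic reads were also summed per gene. This gave 234 tested genes with at least 10 reads, some of which had no single pA with as many. As for single pAs, a gene could pass this minimum through 1 library in which it was high. In the 0–0.5 h window 5 genes were called higher (2.14%) and 10 lower (4.27%), beside 2.55% and 2.99% of all 1138 genes tested for intronic reads. In the 0.5–2 h window 43 were called higher (18.4%) and 15 lower (6.41%), beside 27.1% and 4.75%. From 0 h to 2 h the numbers were 40 (17.1%) and 24 (10.3%), beside 26% and 4.57%. Of the 43 genes called higher in the 0.5–2 h window, 17 had no intronic read at 0.5 h.

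Some genes were called only when their pAs were added up. KRT8 had 7 pAs with 4, 4 and 26 reads in all, 7.45-fold higher at 2 h than at 0.5 h (adjusted p = 1.38e-04, Fisher's exact test). IGF2BP2, the gene of an RNA-binding protein, had 8 pAs spread over 78580 bases, with 0, 2 and 18 reads, 10.3-fold higher (adjusted p = 7.75e-04, Fisher's exact test). At 2 h 7 of its 8 pAs had reads, at 0.5 h 1 had, and at 0 h none had. BAG3, a co-chaperone gene of the stress response, had 4, 0 and 12 reads, and TADA2A, the gene of a subunit of histone acetyltransferase complexes, had 0, 0 and 12, so each was at least 4.58-fold higher. TADA2A had reads in the 2 h library alone. SRCAP, a chromatin remodeller gene, had 2, 1 and 18 reads over 5 pAs, and its most abundant pA was called as well. KRT8, IGF2BP2, BAG3, TADA2A and SRCAP were picked after their values were seen. Each of them reached the minimum of reads only with its reads at 2 h, where it was high.

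Some genes had many pAs. DOCK1, the gene of an activator of the GTPase Rac, had 14 pAs with 5, 14 and 23 reads over 629156 bases, and 3, 7 and 10 of its pAs had reads in the 3 libraries. TTN, which encodes titin, had 12 pAs with 19, 20 and 16 reads. RAD51B also had 12 over 643341 bases, with 16, 6 and 46 reads in all, and 36 of the 46 reads at 2 h were at the pA named above. PRKAR1A and PVRL1 had 9 pAs each, with 149, 175 and 106 reads and with 73, 75 and 58 reads. AHNAK, MTHFD2L, a mitochondrial folate enzyme gene, and UBE2W, a ubiquitin-conjugating enzyme gene, had 10 each. Their reads were 52, 13 and 20 in AHNAK, 19, 9 and 12 in MTHFD2L, and 14, 7 and 8 in UBE2W, with the 0 h library the highest in all 3 genes.

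**Figure D5:**
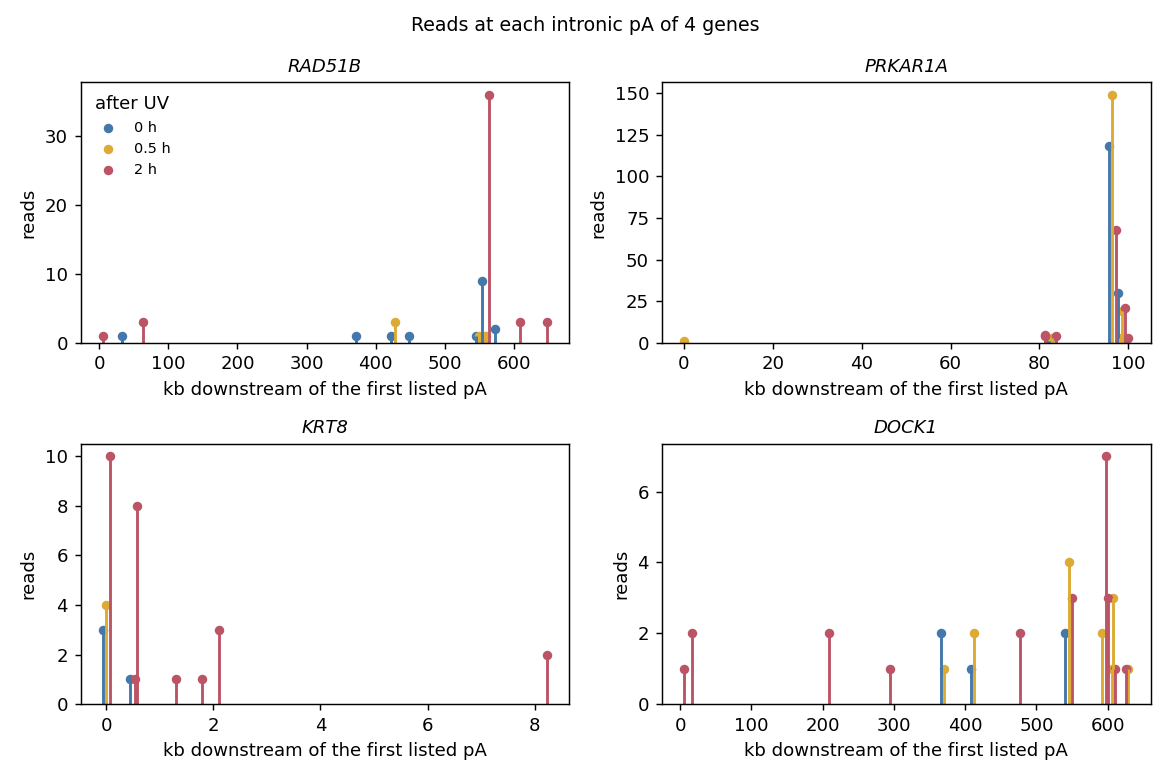
Reads (y axis) at each intronic pA of RAD51B, PRKAR1A, KRT8 and DOCK1 against the distance in kb downstream of the first listed pA (x axis), with the 3 libraries drawn slightly side by side at each pA. In RAD51B 1 pA stands out with 36 reads at 2 h, in KRT8 all 7 pAs have reads at 2 h, and in DOCK1 10 of 14 pAs do.

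The 487 genes with at least 2 pAs had 1567 pAs in all, most of which were not the farthest downstream of their gene. Most reads were not at the farthest downstream pA either. The other pAs held 76.0%, 74.5% and 74.0% of the reads, and without the 5 genes with most reads 66.4%, 66.9% and 69.0%. In 384 of these genes 1 pA had more reads than every other over the 3 libraries, and it was the most downstream one in 143 (37.2%). The other 103 genes had ties. Whether these shares differ from those that the number of pAs per gene alone would give was not tested.

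Genes of the DNA damage response and of the immediate early response were looked up by lists. Of 49 DNA damage response and repair genes in the table, 9 (18.4%) were among these genes, beside 1137 of 9431 (12.1%) of all genes in the table. Their intronic reads were 34, 17 and 78, of which RAD51B held 16, 6 and 46. Of the 3 tested genes, 2 were called higher in the 0.5–2 h window, beside 27.1% of all genes tested, and 1 (RAD51B) from 0 h to 2 h, beside 26%. The 2 genes were RAD51B and ERCC6, the Cockayne syndrome B gene of transcription-coupled repair, with 1, 1 and 8 reads (9.17-fold, adjusted p = 0.0464, Fisher's exact test). ERCC6 reached the minimum of reads only with its reads at 2 h, where it was high. Its call can therefore follow in part from that minimum. The only read of ERCC6 at 0.5 h was at a pA also listed under PGBD3. Its other pA had 9 reads, so without the shared pA ERCC6 would not have been tested. CHEK1, the gene of the checkpoint kinase activated by ATR, had 14, 7 and 13 reads and was not called. The other 6 genes, CHEK2, BRCA1, MSH6, XRCC4, LIG4 and RAD17, had at most 4 reads each in all and were not tested. A difference was not detectable at that depth.

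Of 32 immediate early and stress response genes in the table, FOS and ATF3 were among these genes. FOS, a component of AP-1 and an early response gene to many stimuli, had 3 intronic pAs within 132 bases on chromosome 14, with no read at 0 h or 0.5 h and 11 reads at 2 h, at least 4.20-fold higher at 2 h than at 0.5 h (adjusted p = 0.00182, Fisher's exact test). FOS passed the minimum of 10 reads through the 2 h library alone. Its main pA, at 75746371, held 9 of the 11 reads, under the minimum for the test of single pAs. ATF3 had 1 read at 2 h. Of 28 p53 target genes, SESN1 and PLK2 were among these genes, with 2 and 3 reads, all at 2 h, and neither was tested. Of 25 genes of synapses, neuronal adhesion and ion channels in the table, 17 (68%) were among these genes, with 7, 12 and 14 reads in all. They were sparse, with a median of 2 reads per gene, and none was tested.

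The promoters of the 24 genes with a pA called higher between 0.5 and 2 h were searched for 4 short motifs, and the matches of the AP-1 site and of the cAMP response element (CRE) are shown because both are bound by factors of the stress response. RefSeq promoter sequences on GRCh38.p14, 250 bases before each start, were found for 21 of the 24 genes with 34 start windows, and both strands were searched. The CRE letters TGACGTCA were in 2 of the 34 windows (5.88%) and in 1.65% of all 35116 windows, the AP-1 letters TGANTCA in 1 (2.94%) and in 6.57% of all, TATAAA in 1 (2.94%) and in 10.7% of all, and CCAAT in 9 (26.5%) and in 32.0% of all. A match describes letters and not a bound site. Capitals mark the motif, and the sequences run 5ʹ to 3ʹ on the strand of the gene.
RALGAPA1, CRE, chr14:35809363-35809394, minus strand: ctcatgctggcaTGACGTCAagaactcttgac
RALGAPA1, second CRE, chr14:35809347-35809378, minus strand: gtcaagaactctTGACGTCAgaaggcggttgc
FAM122C, CRE, chrX:134807118-134807149, plus strand: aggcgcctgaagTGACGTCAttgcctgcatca
NAA16, AP-1 site, chr13:41311041-41311071, plus strand: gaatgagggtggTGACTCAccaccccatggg
The pAs of these genes had 2, 4 and 19 reads in RALGAPA1, 1, 2 and 11 in FAM122C, which RefSeq now names PABIR3, and 1, 0 and 9 in NAA16.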

How the data were processed

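The deposited table gives RPM values, scaled by the authors to the total reads of each library, for RKO nuclear RNA at 0, 0.5 and 2 h (1 library per time point). The submitters' processing notes name CASAVA, Bowtie2 and hg19, without versions. Dividing by the value of 1 read gave whole numbers for all deposited RPM values (largest deviation 4.00e-11 reads), and these reads were used. The transcript models behind the pA types are not given in the sources used here.

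pAs of intronic type were kept where the table lists no 3ʹ-most-exon pA under the same gene name. Every pA of the table with at least 10 reads over the 3 libraries was tested with a two-sided Fisher's exact test (Python 3.11.15, scipy 1.17.1), adjusted by Benjamini-Hochberg over all pAs tested. A pA was called at an adjusted p under 0.05 and an RPM ratio of at least 2. The same test was run on the intronic reads summed per gene. The test was checked on simulated reads with known changes, drawn as independent counts for 2 libraries with the read minimum over these 2. That check does not cover reads that are not independent or variation between cultures. Ratios of 2 libraries carry 95% Clopper-Pearson intervals, for counting error only. There were no molecular identifiers, so reads are not independent molecules. Where 1 library had 0 reads, a bound was set with 3 reads in that library. Log2 ratios had 0.1 RPM added.

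The members, gene lists and tests were chosen with earlier results of these data known. Named were the 15 most abundant pAs, up to 10 called pAs per direction and window with the smallest p, the 10 genes with most pAs and list genes with at least 10 intronic reads. One gene that this rule names is not reported here. Other genes are named as whole list memberships or were chosen after their values were seen. Alternatives were the read minimum, the ratio, adjustment, thinning to the smallest library, scaling to 3ʹ-most-exon reads, pAs listed under 1 gene only, the value added before the logarithm and a minimum of 2 reads for detection. Sequence around the pAs and their distance to exons are not analysed here. Promoter sequences are RefSeq's, on GRCh38.p14, and gene types are from RefSeq by symbol.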

Additional observations from a re-analysis of the deposited data

How the results depend on the processing

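Under the other settings tried, 38 of 48 counts of called pAs and 24 of 30 counts of called genes stayed within 1.5 times their value. With a minimum of 20 reads, 11 pAs were called higher in the 0.5–2 h and 11 in the 0–2 h window, and 17 and 22 genes. With no minimum, 3 pAs were called higher in the 0–0.5 h and 16 in the 0–2 h window, and with a minimum of 5 reads 2 genes were called higher in the 0–0.5 h window. At a ratio of at least 4, 3 pAs were called higher in the 0–0.5 h and 7 lower in the 0.5–2 h window, and 8 and 12 genes lower in the 0.5–2 h and 0–2 h windows. With unadjusted p, 14 pAs were called higher and 24 lower in the 0–0.5 h window and 31 lower in the 0.5–2 h window. After thinning, 3 pAs and 3 genes were called higher in the 0–0.5 h window. Requiring 2 reads left 423, 481 and 691 pAs with reads at 0 h, 0.5 h and 2 h, and leaving out the 10 most abundant pAs gave 0.834%, 0.735% and 0.962% of the library reads. The cause of these shifts beyond the fewer pAs or reads kept was not tested. With 1 read added in place of 0.1 RPM, all 72 log2 ratios of named called pAs kept their sign, and the largest went from 9.05 to 4.60 in size. Scaling to 3ʹ-most-exon reads moved log2 ratios by -0.01, 0.04 and 0.03 in the 0–0.5 h, 0.5–2 h and 0–2 h windows. Depth limits the result: 2023 of the 2217 pAs had under 10 reads. No paired analysis was possible because each time point has 1 library.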

Other observations

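pAs in upstream exons were listed for 62 of the genes, 80 pAs in all, and these held 82 reads at 0 h, 118 at 0.5 h and 129 at 2 h. A single pA in INTS10, the gene of a subunit of the Integrator complex, which cleaves nascent RNA, held 33, 50 and 64 of them. The next was in TLE6 with 4, 6 and 3 reads. By symbol, 33 of the 1137 genes (2.90%) were zinc finger genes named ZNF, beside 3.09% of the genes with 3ʹ-most-exon pAs, and 51 (4.49%) carried placeholder symbols of the open reading frame, FAM or KIAA kind, beside 4.17%.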
